A study of Mus musculus with 4 samples.

Results

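The immediate early genes examined here were Fos, Fosb, Jun, Junb, Egr1, Atf3, Ier2, Ier3, Dusp1 and Zfp36, chosen by gene name. All 10 were found, as 12 of the 41174 gene probes of the array, with 2 probes each for Junb and Zfp36 and 1 probe for each of the others. Each of the 4 arrays (a, b, e and k in the labels) compared total RNA from the colonic mucosa of a C57BL/6 mouse 90 days after birth (P90) with that of a mouse 30 days after birth (P30), with no treatment or altered gene named in the labels. P90 RNA carried the dye Cy3 on every array but e, where it carried Cy5, and P30 RNA carried the other dye. The mucosa was scraped from the gut wall, so each RNA came from a mixture of cells. The study calls the comparisons independent without saying whether each RNA came from a separate animal. The p-values rest on how far these 4 pairs differ from each other, which can include technical spread. Each gene's variance was also drawn toward that of all genes. In such bulk RNA, fewer cells of a type and less RNA per cell cannot be told apart.

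Immediate early genes are transcribed within minutes of a growth factor, cytokine or stress reaching a cell, from factors already present and without new protein synthesis. Their promoters are bound by serum response factor with its Elk partners and by factors of the CREB and ATF families, which MAP kinases and protein kinase A activate. Their mRNAs are short-lived, and some of their products (Dusp1, which removes phosphate from MAP kinases, and Zfp36, which binds AU-rich elements and starts mRNA decay) end the response. In the intestine they are known to respond to luminal and inflammatory signals and to injury.

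The bases before the start of 5 of these genes are shown: Atf3, Fos and Dusp1 had the widest and Ier3 the narrowest spread of level between the array pairs among the 8 members with a window, as normalised here, and Zfp36 held the only match to a serum response factor site. Each window holds the 250 bases before the gene's annotated start in RefSeq, assembly GRCm38.p6, 5′ to 3′ on the gene's own strand: Fos at chr12:85473640-85473889 (plus strand), Atf3 at chr1:191183334-191183583 (minus), Dusp1 at chr17:26508473-26508722 (minus), Zfp36 at chr7:28379229-28379478 (minus) and Ier3 at chr17:35821463-35821712 (plus). Capitals mark matches on either strand to the CRE core TGACG, to TATAAA and to the serum response factor CArG box.
Fos: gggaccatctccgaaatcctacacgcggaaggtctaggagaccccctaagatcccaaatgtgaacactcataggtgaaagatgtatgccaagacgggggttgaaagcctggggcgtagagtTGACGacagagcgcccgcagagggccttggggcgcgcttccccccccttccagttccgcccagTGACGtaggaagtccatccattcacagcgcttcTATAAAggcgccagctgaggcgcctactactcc
Atf3: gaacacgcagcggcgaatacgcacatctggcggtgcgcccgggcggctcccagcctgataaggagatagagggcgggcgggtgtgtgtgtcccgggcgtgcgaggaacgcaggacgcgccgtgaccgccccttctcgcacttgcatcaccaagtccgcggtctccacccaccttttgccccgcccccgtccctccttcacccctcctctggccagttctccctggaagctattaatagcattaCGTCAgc
Dusp1: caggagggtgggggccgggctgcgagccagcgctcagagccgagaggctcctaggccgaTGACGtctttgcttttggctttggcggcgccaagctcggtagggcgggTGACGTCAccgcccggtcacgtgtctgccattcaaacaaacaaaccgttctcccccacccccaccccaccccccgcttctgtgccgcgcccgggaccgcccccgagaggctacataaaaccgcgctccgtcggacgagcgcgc
Zfp36: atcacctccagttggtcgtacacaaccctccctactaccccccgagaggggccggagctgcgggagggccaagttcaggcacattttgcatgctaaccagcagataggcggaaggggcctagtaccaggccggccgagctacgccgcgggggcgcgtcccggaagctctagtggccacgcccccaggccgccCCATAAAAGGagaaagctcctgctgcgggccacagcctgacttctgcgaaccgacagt
Ier3: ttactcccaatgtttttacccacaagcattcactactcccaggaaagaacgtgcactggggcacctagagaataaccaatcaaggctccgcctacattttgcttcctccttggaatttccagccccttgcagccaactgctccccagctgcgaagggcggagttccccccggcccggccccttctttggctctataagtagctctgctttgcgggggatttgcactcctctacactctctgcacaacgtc
The core TGACG was found in 5 of the 8 windows (Atf3, Dusp1, Fos, Fosb and Junb), against 17.9% of the 27025 promoter windows of that length. Dusp1 had the only full CRE, TGACGTCA, a palindrome that holds a core on each strand; 1.62% of all windows hold one. Fos had cores beginning at positions -129 and -66 and TATAAA beginning at position -33, counted back from the base before the start as -1. TATAAA was found in no other member's window and in 13.0% of all windows. The CArG box was found in Zfp36 alone, beginning at position -58, against 1.40% of all windows, and the Egr motif GCGNGGGCG in Fosb and Zfp36, against 4.65%. The AP-1 motif TGANTCA was in none of the 8 windows and in 6.87% of all, and Ier3 held none of these motifs. Ier3 did hold the letters CCAAT, as did Jun and Junb, against 34.5% of all windows. The ETS core GGAA was in 7 of the 8 windows, Ier3 among them, against 93.4% of all. A match is a description of these letters only, and a link to the spread of level was not tested. Fosb and Junb, which also held the core, had an SD of level between arrays that 52.3% and 68.5% of all genes reached. Sites farther from the start were not looked for, nor any in Egr1 and Ier2, which had no window.

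All 12 probes were well above background in both channels of all 4 arrays, none was saturated, and all 10 genes passed the filter on dim probes. No immediate early gene passed the test between ages: 0 of 10 had an adjusted p under 0.05 (limma, Benjamini-Hochberg over 20825 genes and transcripts), as did 0% of all those tested, and the members' adjusted p-values ran between 0.627 and 0.991. At an unadjusted p under 0.05 the count was 1 of 10 (Atf3), against 7.9% of all genes. The mean log2 P90/P30 lay above 0 for 5 members and below 0 for 5, and their median of -0.018 was close to the -0.020 of all genes. No member kept 1 direction on all 4 arrays, whereas 6.15% of all genes were above 0 on all 4 and 7.98% below. The direction was shared by 3 of 4 arrays in 7 members and split evenly in 3 (Fos, Junb and Dusp1).

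**Figure D1:**
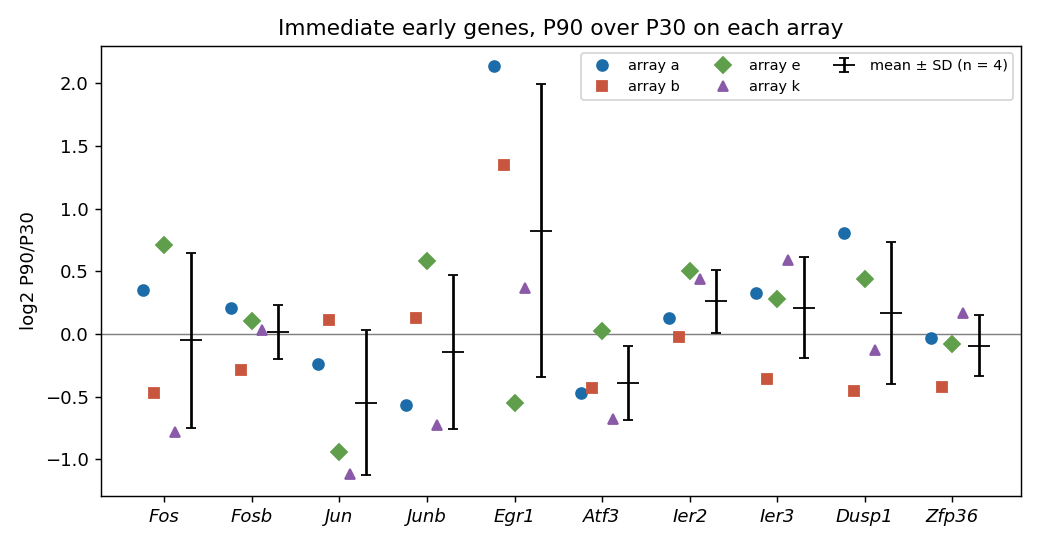
Log2 P90/P30 (vertical axis) of each immediate early gene on arrays a, b, e and k (coloured symbols), with the mean ± SD of the 4 arrays in black. Symbols of every gene lie on both sides of 0, and Egr1 spans the widest range, between -0.56 and 2.13.

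The Fos and Jun families encode the bZIP proteins that pair as the transcription factor AP-1. Fos had normalised signals (linear brightness after normalization) of 9372, 3487, 4370.0 and 1962 in the P90 samples of arrays a, b, e and k, against 7349.9, 4839, 2673 and 3384 in the P30 samples. P90 was the brighter sample on arrays a and e and the dimmer one on b and k, and the ranges overlapped. The log2 P90/P30 was 0.35, -0.47, 0.71 and -0.79 on arrays a, b, e and k, with a mean of -0.050 ± 0.70 (SD, n = 4) and a 95% interval of -0.73 to 0.64. The Fos probe is printed on 10 spots per array, of which 9 were used, and the SD between those spots was at most 0.056. The SD between arrays was 12.4 times that; the spots measure only the error within an array, not that of RNA, labelling or hybridisation.

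The Fosb signals in P90 were 233, 157, 158 and 161 on arrays a, b, e and k, against 201, 191, 147 and 158 in P30. The P90 sample of array a stood above the other 3, which lay within a few units of each other. Its mean log2 P90/P30 was 0.014 ± 0.21 (SD, n = 4), with an interval of -0.33 to 0.35, so differences of that size were not detectable with 4 arrays.

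Jun had P90 signals of 3476, 2045, 1859 and 1883, against 4103, 1898, 3567 and 4095 in P30. P90 was lower on arrays a, e and k and slightly higher on b, and the ranges overlapped. The log2 values of -0.24, 0.11, -0.94 and -1.12 averaged -0.55 ± 0.58 (SD, n = 4), with an interval of -1.14 to 0.042 and an adjusted p of 0.627 (limma, Benjamini-Hochberg). The Jun probe also has 10 spots per array, 9 of them used, with a spot SD of at most 0.049, and the SD between arrays was 11.9 times that. Jun was the 1 member whose sign matched the medians of the fibroblast, endothelial and myeloid markers on all 4 arrays. Of all genes, 33.4% had this pattern of signs or its reverse. The median of the MAP kinase phosphatases and feedback regulators had it too (-0.068, 0.19, -0.067 and -0.31 on arrays a, b, e and k). So did the medians of the cytokine and growth factor targets and of the upstream kinases and serum response factors. The 8 fibroblast markers (Col1a1, Col1a2, Col3a1, Dcn, Lum, Pdgfra, Postn and Fbln1), all tested and none called, had median log2 P90/P30 values of -3.93, 1.65, -2.32 and -2.95 (arrays a, b, e and k), and a summed signal of 2412 to 31543 in P90 samples against 11234 to 92685 in P30 samples. The 8 endothelial markers tested of 8 had medians of -0.91, 0.89, -0.65 and -1.32, with a summed signal of 1395 to 4813 in P90 samples and 2106 to 8564 in P30 samples. The 8 myeloid markers tested of 9 had medians of -1.05, 0.92, -0.33 and -0.87, with sums of 3908 to 6660.4 in P90 samples and 4137 to 7801 in P30 samples. The part of these cells in the Jun values was not tested.

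Junb had P90 signals of 19023, 24710.4, 35035 and 21721 on arrays a, b, e and k, against 28239, 22589, 23385 and 36013 in P30. P90 was lower on a and k and higher on b and e. The mean log2 P90/P30 was -0.15 ± 0.61 (SD, n = 4) and the interval -0.76 to 0.47. The second Junb probe had the same sign on all 4 arrays, differed from the first by 0.030 to 0.29 and averaged -0.066 ± 0.41, so the split between arrays was seen with both probes.

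Egr1, a zinc finger transcription factor induced through serum response factor, had the mean farthest from 0 among the members over all 4 arrays, as normalised here. Its mean was not the farthest without array a (0.38, against -0.65 for Jun) or without array b (0.65, against -0.77 for Jun). With all 4 arrays kept, it was also not the farthest with a dye term (0.36, against -0.68 for Jun) or median centring (0.45, against -0.92). Nor was it with array weights (0.66, against -0.71 for Jun) or with the sign of array b turned (0.15, against -0.60). Its P90 signals were 9915, 2749, 982 and 1784 on arrays a, b, e and k, against 2259, 1080.3, 1443 and 1387 in P30. The P90 samples spanned 10.1-fold between the highest and the lowest, the P30 samples 2.09-fold, and the ranges overlapped. The log2 P90/P30 was 2.13, 1.35, -0.56 and 0.36, with a mean of 0.82 ± 1.17 (SD, n = 4), an interval of -0.26 to 1.91 and an adjusted p of 0.656 (limma, Benjamini-Hochberg). An SD of the ratio at least as large was found in 3.45% of all genes. The array where P90 was lower is the one with the dyes swapped: after loess, Egr1 was brighter in Cy3 on all 4 arrays, with a log2 Cy3/Cy5 of 2.13, 1.35, 0.56 and 0.36, as were 4.15% of all genes. In the raw signals Cy5 was the brighter on array k (log2 Cy3/Cy5 of -0.50). With a dye term in the fit, Egr1 had a log2 P90/P30 of 0.36, with an interval of -0.61 to 1.34.

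Atf3 encodes a bZIP factor induced by many stresses, among them the integrated stress response. Its P90 signals were 7486, 3041, 2213 and 1323, against 10374, 4107, 2183 and 2123 in P30. P90 was lower on arrays a, b and k and level with P30 on e, and the ranges overlapped since the signals of both samples of a pair moved together. The log2 values of -0.47, -0.43, 0.020 and -0.68 averaged -0.39 ± 0.30 (SD, n = 4), with an interval of -0.78 to -0.0054, an unadjusted p of 0.0478 and an adjusted p of 0.627 (limma, Benjamini-Hochberg). The exception was again the swapped array. After loess Atf3 was brighter in Cy5 on all 4 arrays, as were 4.89% of all genes, but by only -0.020 (log2 Cy3/Cy5) on e, where the raw value was 0.11. Under 4 other normalizations (the deposited log ratios, the value table, median-centred processed signals and median centring) Atf3 was lower at P90 on all 4 arrays, and so brighter in Cy3 on e. With a dye term the estimate was -0.25, with an interval of -0.68 to 0.17.

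Ier2 encodes a small nuclear protein of the early response and Ier3 a stress-inducible regulator of cell survival. Ier2 had P90 signals of 8534, 7615, 6901 and 7069, against 7828, 7736, 4878 and 5219 in P30. The 2 samples were nearly level on array b, and P90 was higher on a, e and k. The mean log2 P90/P30 was 0.26 ± 0.25 (SD, n = 4), with an interval of -0.099 to 0.62. Ier3 had P90 signals of 468, 354, 493 and 519, against 372, 453, 407 and 345 in P30. P90 was lower on array b and higher on the other 3, with a mean of 0.21 ± 0.40 and an interval of -0.25 to 0.67.

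Of the inhibitors of the response, Dusp1 had P90 signals of 3519.5, 1019, 2231 and 1313, against 2011, 1399, 1643 and 1438 in P30. P90 was higher on arrays a and e and lower on b and k, the same directions as Fos. Its log2 P90/P30 of 0.81, -0.46, 0.44 and -0.13 averaged 0.17 ± 0.57 (SD, n = 4), with an interval of -0.42 to 0.75. Zfp36 had P90 signals of 2425, 1558, 1573 and 2169.9, against 2482, 2087, 1666 and 1938 in P30, with P90 higher on array k only. Its mean was -0.094 ± 0.24 and its interval -0.45 to 0.26. The second Zfp36 probe averaged 0.21 ± 0.34 and shared the sign of the first on 2 of 4 arrays, differing by 0.14 to 0.63, so not even the sign of Zfp36 was settled between its probes.

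Several members differed between the array pairs in level, taken as the mean of both ages. Atf3 had its highest signal on array a at both ages, and the mean of both ages spanned 5.26-fold between arrays; an SD between arrays at least as large was found in 1.08% of all genes. The same span was 3.98-fold for Egr1, 3.22-fold for Fos and 2.23-fold for Dusp1, with an SD at least as large in 2.21%, 4.36% and 11.9% of all genes. Ier3 had the narrowest span, 1.12-fold, and an SD at least as large in 92.4% of all genes, but with no scaling between arrays that share was 55.7%, below those of Jun (70.9%) and Zfp36 (60.2%). Over the 10 members the median span was 1.72-fold, against 1.43-fold over all genes, and the median SD of the ratio was 0.48, against 0.35. At P90 alone the span was 5.66-fold for Atf3, 10.1-fold for Egr1, 4.78-fold for Fos and 3.45-fold for Dusp1. At P30 alone it was 4.89-fold, 2.09-fold, 2.75-fold and 1.44-fold, in that order.

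**Figure D2:**
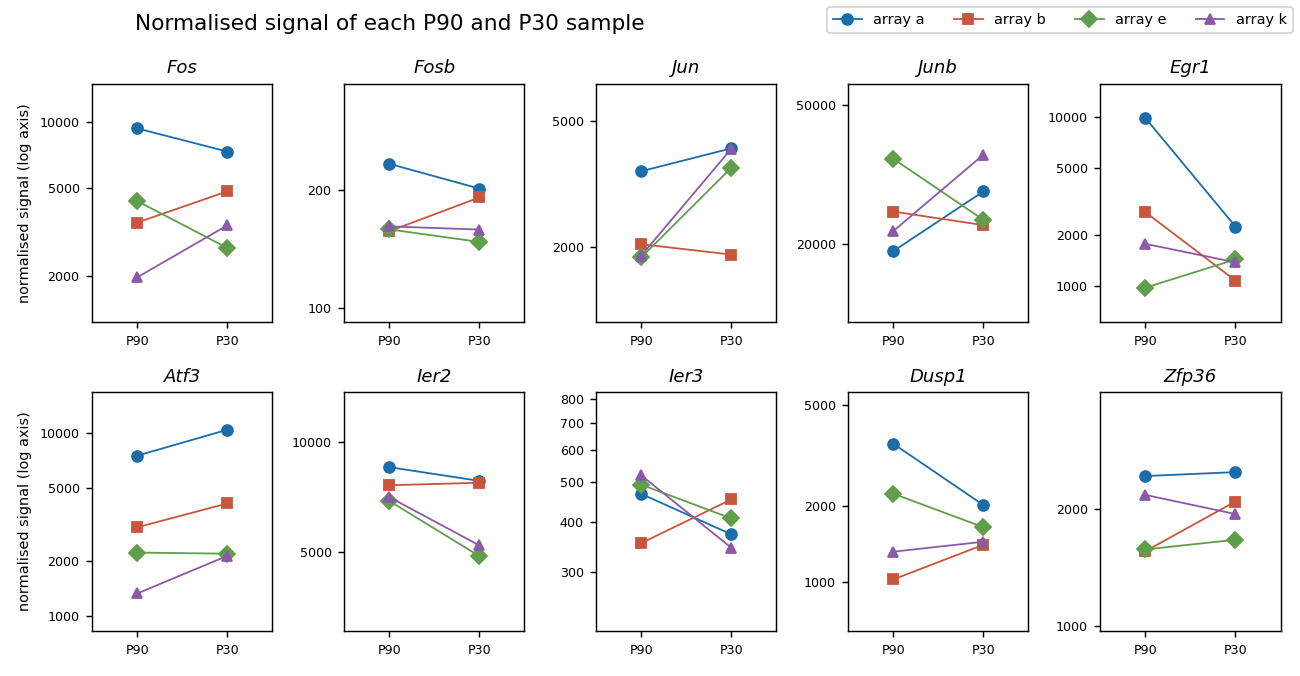
Normalised signal (linear units on a log axis) of each immediate early gene in the P90 and P30 sample of arrays a, b, e and k, with a line joining the 2 samples of an array. Array a lies highest at both ages in 8 of the 10 genes, while the lines of Fos, Junb and Dusp1 slope up on 2 arrays and down on 2; heights are not comparable between genes.

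In 8 of 10 members, all but Junb and Ier3, the P90 and the P30 sample of array a were both the highest of their age, against 9.1% of all genes; this count was chosen after the values were seen. Both samples of an array are read from the same spots, so the 2 ages are not separate observations of level. A level shared by the pair cannot be told apart from an effect of the array or its spots. The count also depends on how signals are set across arrays. It was 3 with no scaling between arrays (Atf3, Egr1 and Fos, against 2.45% of all genes), 5 with median scaling (7.02%) and 6 with background-subtracted signals (8.54%) or the processed signals (7.65%) set at each channel's 75th percentile. Atf3, Egr1 and Fos were highest on array a in both samples under all 5 scalings. Between these scalings the share of all genes with an SD between arrays at least as large stayed between 1.08% and 5.70% for Atf3, between 2.21% and 8.68% for Egr1 between 4.36% and 18.8% for Fos and between 11.9% and 31.8% for Dusp1.

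**Figure D3:**
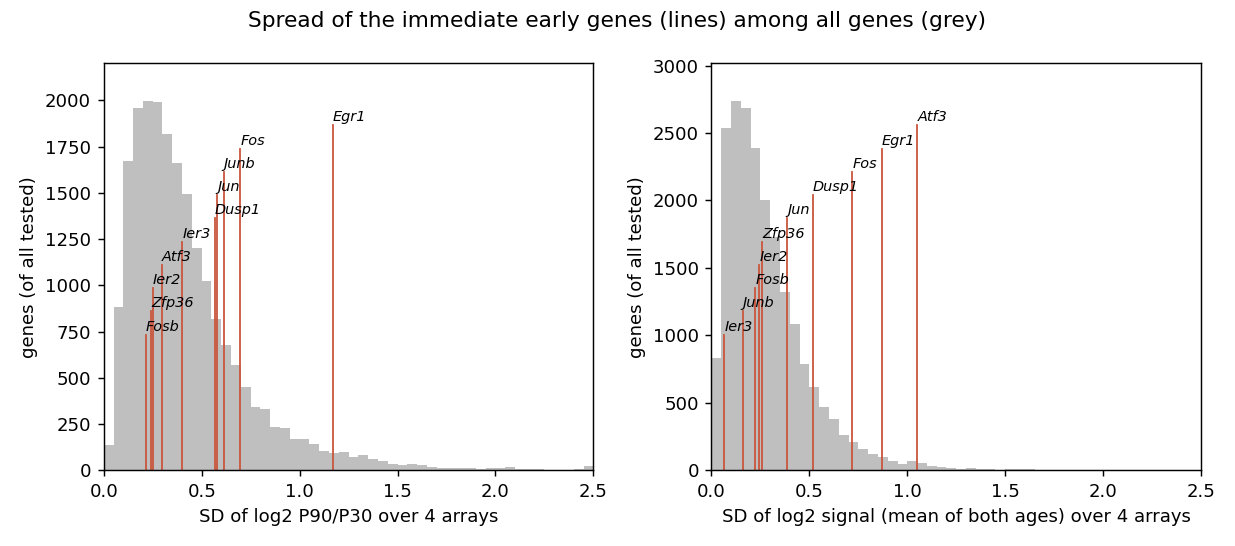
Histograms of all genes measured on 4 arrays (grey, number of genes on the vertical axis) by the SD of log2 P90/P30 (left) and by the SD between arrays of the log2 signal averaged over both ages (right), with the 10 immediate early genes as red lines whose height carries no value. Genes beyond the horizontal axis are in its last bin. Egr1 stands farthest right on the left, and Atf3, Egr1 and Fos stand in the tail on the right.

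The arrays themselves did not run together. The log ratios of array b correlated negatively over all genes with those of a (-0.31), e (-0.27) and k (-0.19), although a, b and k share 1 dye orientation, while a, e and k correlated positively with each other (0.31 to 0.60). The shares of probes well above background were 55.6% to 69.3% in P90 samples and 64.6% to 71.0% in P30 samples, and all 4 arrays lay on 1 slide, so no slide batch could be tested. The direction on array b was kept as the labels give its dyes. The members' medians were 0.17, -0.32, 0.19 and -0.052 (arrays a, b, e and k), with 6, 3, 7 and 5 of the 10 above 0. Without array b, Fosb, Ier2 and Ier3 were above 0 and Jun below on all 3 remaining arrays, which is 4 of 10 against 47.5% of all genes, and none of the 10 passed the test. With the sign of array b turned, the same 4 genes kept 1 direction on all 4 arrays, against 33.4% of all genes. The 5 genes outside the set with a symbol whose pattern lay nearest to the members' median on each array were Qrich2, Msx1, Plekhm3, Frmpd1 and Olfr1280, with root mean square differences of 0.024 to 0.033 over 4 arrays. Among the members, Fosb lay nearest to that median (0.064) and Egr1 farthest (1.36).

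Other genes of the pathway likewise had no call (0 of those tested in each list, limma adjusted p with Benjamini-Hochberg). Among related transcription factors 18 of 20 were tested, 9 with a mean above 0 and 9 below, with a median log2 P90/P30 of -0.0050. Jund, the AP-1 member with the smallest p on the higher side, had 0.50 ± 0.37, but its probe was saturated in 3 of 4 P90 samples and 3 of 4 P30 samples, so its ratio is not a measure of size. Klf6, a zinc finger factor, had -0.63 ± 0.88. Mafk was above 0 on all 4 arrays (0.24 ± 0.12). Among MAP kinase phosphatases and feedback regulators, 14 of 15 were tested, 5 above 0 and 9 below, with a median of -0.12; the smallest p was that of Dusp8 among means above 0 (0.26 ± 0.37) and of Dusp10 among means below 0 (-0.55 ± 0.62).

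The 12 genes listed for the decay of mRNAs with AU-rich elements, which include regulators such as Elavl1, known to stabilise such mRNAs, had 3 means above 0 and 9 below, with a median of -0.27. Cnot1 and Parn, which belong to or act as deadenylases, were below 0 on all 4 arrays, while Hnrnpd, which binds AU-rich elements, had -0.72 ± 0.66 and the kinase Mapkapk2, which inhibits Zfp36, had 0.28 ± 0.37. Of 25 cytokine, growth factor and signalling targets 20 were tested, 9 above 0 and 11 below, with a median of -0.033. Pim1, a kinase, was above 0 on all 4 arrays (0.39 ± 0.32), and Nfkbia, the inhibitor of NF-kappaB, was below 0 on all 4. Ptgs2, Cxcl1, Cxcl2, Il6 and Ereg did not pass the filter on dim probes. The upstream kinases and serum response factor partners had 27 of 29 tested, 10 above 0 and 17 below, with a median of -0.080. The factor's coactivator Mrtfa (0.43 ± 0.16) was above 0 and the kinase Rps6ka3 (-0.57 ± 0.43) below 0 on all 4 arrays.

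Of 10 partners of Atf3 in the integrated stress response, 8 had a mean above 0 and 2 below, with a median of 0.14, whereas Atf3 itself had a mean below 0. Ppp1r15a, the phosphatase subunit that ends that response, had a log2 P90/P30 of 0.38, 0.33, 0.21 and 0.65 on arrays a, b, e and k, and Asns, which makes asparagine, had -0.072 ± 0.70. The 10 heat shock genes had 6 means above 0 and 4 below, with a median of 0.15. The small chaperone Hspb1 was above 0 on all 4 arrays (1.02 ± 0.87), and the mitochondrial chaperonin Hspd1 below 0 on all 4 (-1.06 ± 1.13). None of these passed the test.

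**Figure D4:**
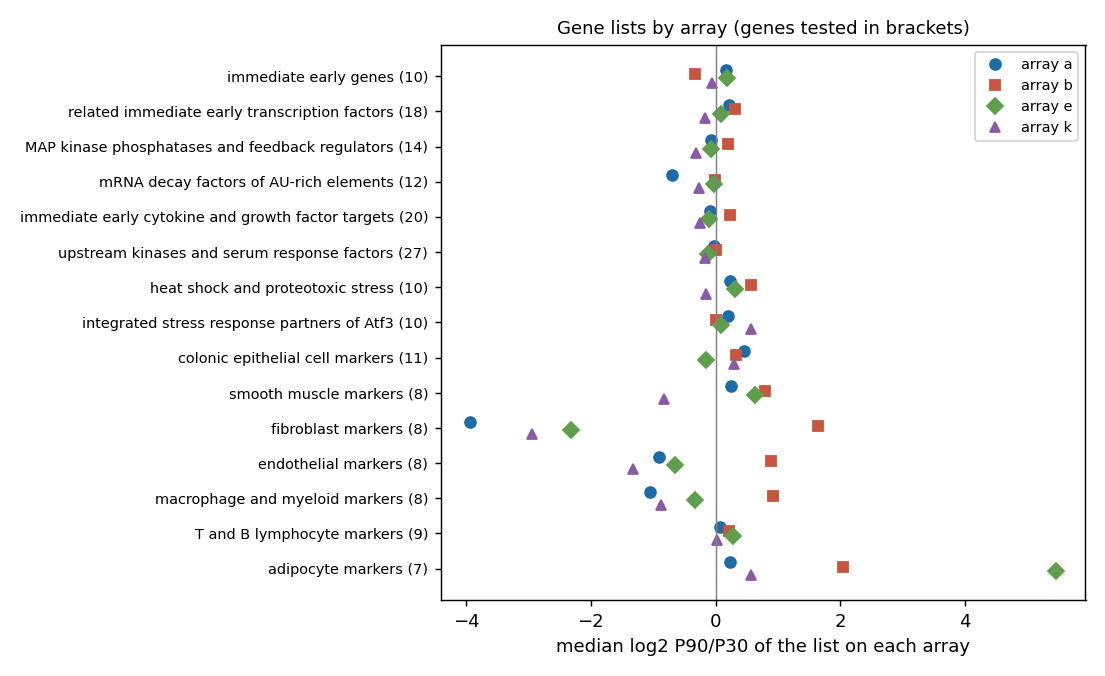
Median log2 P90/P30 (horizontal axis) of each gene list on arrays a, b, e and k, with the number of genes tested in brackets. The medians of the immediate early genes lie between -0.32 and 0.19 and those of the other pathway lists between -0.70 and 0.57, while the fibroblast markers lie between -3.93 and 1.65 and the adipocyte markers between 0.24 and 5.46.

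Markers of the cells that scraped mucosa can hold were read on the same arrays, and none was called. Of 12 epithelial markers 11 were tested, and their summed signal was 525034 to 691560 in P90 samples and 469921 to 591949 in P30 samples. This sum includes saturated markers, so it cannot be compared between the ages. Krt8, Krt18 and Lgals4 were saturated in all 8 samples, so they mark the tissue as epithelial but their ratios cannot be read, and 8 of the 11 were saturated in some sample. Among the markers that were never saturated, Cdx2, an intestinal transcription factor, was below 0 on all 4 arrays (-0.40 ± 0.33), Epcam had -0.34 ± 0.36 and the chloride exchanger Slc26a3 had -1.21 ± 1.80, and none passed the test. The 8 smooth muscle markers tested had medians of 0.25, 0.79, 0.63 and -0.82 on arrays a, b, e and k, and the 7 of 8 adipocyte markers tested 0.24, 2.04, 5.46 and 0.57. On array e, where adipocyte markers were highest in the P90 sample (summed signal 186475, against 8187 in the P30 sample, with 6276 to 186475 over all P90 samples and 3663 to 12435 over all P30 samples), Fos, Junb, Atf3 and Ier2 had their highest ratios and Egr1 its lowest. Of all genes 24.4% had their highest ratio on array e and 18.8% their lowest. Array e is also the only one with swapped dyes, so dye and adipocyte content cannot be told apart there, and the part of these cells in any member's value was not tested. The 9 T and B lymphocyte markers had a median of 0.060, with 8 means above 0 and 1 below. Their summed signal was 2621, 20231, 14951 and 2218 in the P90 samples of arrays a, b, e and k. In the P30 samples it was 3292, 3340, 5249 and 4804. The markers with the smallest p on each side were Des (1.14 ± 1.22) and Lmod1 (-0.11 ± 1.23) of smooth muscle, Esam (0.11 ± 0.61) and Egfl7 (-0.73 ± 0.84) of endothelium, Cd14 (0.19 ± 0.62) and C1qc (-0.71 ± 1.36) of myeloid cells, and Cd3g (0.39 ± 0.52) and Ms4a1 (-0.072 ± 0.33) of lymphocytes. Col1a1 had -2.29 ± 2.44 among the fibroblast markers, all of them with means below 0, and the adipocyte marker Cfd, saturated in 1 P90 sample, was above 0 on all 4 arrays (3.47 ± 2.41).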

How the data were processed

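The authors deposited scanner files with linear intensity, as median spot and local background brightness per channel, taken before normalization per the file headers. They also deposited a log10 ratio of Cy5 to Cy3, computed by the scanner software from its processed signals, per the file headers. The deposited value table proved to be log2 P90/P30, nearly the same values with the sign set by the dyes; its centring is not given in the sources used here. Flags per spot (other) came from the deposited scanner files. Feature Extraction (Agilent) was used, as 10.5.1.1 per the file headers but 8.5.1.1 per the submitters' processing notes. The labels name 0.4 µg of RNA per labelling.

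Median signals stood in for the mean signals named in the planned design, which were not used here. In limma 3.58.1 (R 4.3.3), background was corrected by normexp with an offset of 50 and each array was normalized by loess with a span of 0.3, control spots at weight 0. Outlier spots (127 to 156 per array) were dropped, and log ratios were turned to P90 over P30. Probes well above background at P90 or at P30 on at least 3 arrays were kept (27055 of 41174), and the brightest kept probe stood for a gene. Probes were named by RefSeq accession (25097 of them; 16077 kept the design's accession). The mean over 4 arrays was tested against 0 with lmFit and eBayes, and p-values were adjusted by Benjamini-Hochberg over 20825 genes. The model fit alone was tested on simulated data with independent noise for each gene and array. Normalization, dyes, filters and an array running against the others were not part of that simulation. Normalised signals per sample are loess values scaled by Aquantile; they include the offset and are not comparable between probes. Intervals are at 95% and cover the spread between arrays, with each gene's variance drawn by eBayes toward that of all genes. They can be narrower or wider than the printed SD of the 4 arrays alone would give. The number of arrays limits the precision. Alternatives were other background corrections, normalizations, filters, probe rules, variance models, a dye term, array weights, the sign of array b turned and each array left out.

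The members, lists and tests were chosen with earlier results of these data known. All members and probes are named; from each list those named are genes past the test or, where none passed, the smallest p in each direction. Other genes named with values (among them those with 1 sign on all 4 arrays, saturated or dim markers, Khsrp and Klf2) were chosen after their values were seen. Egr1 and Ier2 have no promoter window shown.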

Additional observations from a re-analysis of the deposited data

Results flagged for a closer look

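A sample standing far from the other 3 of its age was looked for in the ratio and in both signals of each member and in the ratios of the second probes (32 groups of 4), with Dixon's gap over range. Chance gives such a gap in about 1 in 20 groups, and 2 of the 32 passed. The P90 signal of Fosb on array a, 7.86 on the log2 scale, stood above the P90 samples of arrays b, e and k. The P90 signal of Jun on array a, 11.76 on the log2 scale, likewise stood above the other P90 samples. Both lie on the array where 8 of the 10 members had their highest signal at both ages, and both are signals set across arrays by 1 scaling, with no other scaling tried for this gap.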

How the results depend on the processing

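No member was called under any of the 21 alternatives, and the smallest adjusted p of a member was 0.123 (limma, Benjamini-Hochberg). Over all genes 2 were called with a normexp offset of 10, with the processed signals under loess, under the authors' log ratios and their value table, and 0 otherwise. Median centring moved the median of all genes to -0.21 and that of the members to -0.32. The count of members with 1 direction on every array was 2 with median-centred processed signals (Fosb and Atf3), 1 under the authors' log ratios and value table (Atf3), 3 with median centring (Fosb, Atf3 and Zfp36), 4 with array b turned and 0 to 4 with 1 array left out. The count with the highest signal on array a at both ages, with scalings chosen after seeing the data, was 3 and 5 under the loess scalings. Jun, Egr1 and Atf3 kept their sign in all 21 alternatives, but Egr1 dropped to 0.15 and Atf3 stood at -0.17 with array b turned. Their ratios could not change under Aquantile, the filter changes, the mean of a gene's probes, saturated spots left out or either variance model. Those settings therefore could not test the sign. The authors' log ratios and value table held nearly the same values.

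The sign of Fos turned under the authors' log ratios (0.050) and value table (0.035) and with array weights (0.040), the dye term (0.20) and array b turned (0.19). Fosb turned with no background correction (-0.013), median-centred processed signals (-0.15), the deposited log ratios and value table (-0.084 in both) and median centring (-0.22). Junb turned with the deposited log ratios and value table (0.019 in both) and the dye term (0.097). Median centring turned Ier2 (-0.10), Ier3 (-0.15) and Dusp1 (-0.21). Zfp36 turned with the mean of its probes (0.056) and with array b turned (0.12). With 1 array left out, Fos ran between -0.30 and 0.20, Fosb between -0.051 and 0.11, Jun between -0.77 and -0.36, Junb between -0.39 and 0.048, Egr1 between 0.38 and 1.28, Atf3 between -0.53 and -0.29, Ier2 between 0.18 and 0.35, Ier3 between 0.083 and 0.40, Dusp1 between -0.049 and 0.37 and Zfp36 between -0.18 and 0.016. The cause of these changes was not tested. Leaving out array b gave the count of 4, and leaving out array a gave 0. The signals of Fosb, 147 to 233, include the offset of 50, which compresses its ratio.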

Other observations

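Khsrp, an RNA-binding protein that promotes decay of mRNAs with AU-rich elements, had a log2 P90/P30 of 0.11, -1.99, 2.44 and 0.30 on arrays a, b, e and k, and its signal averaged over both ages spanned 5.76-fold between arrays. The Khsrp probe was saturated in none of the samples. Klf2, of the related transcription factors, had the same signs, with 0.20, -3.37, 2.80 and 0.58 on arrays a, b, e and k. Its averaged signal spanned 43.2-fold between arrays, with its probe saturated in 1 P90 and 1 P30 sample. Both genes were picked after their values were seen, and neither passed the test.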
